A study of Mus musculus with 435 samples.

Results

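The liver of A/J mice on a high-fat diet was compared with that of A/J mice on a low-fat diet early in the feeding study, at weeks 1 and 3. The arrays were chosen by their labels alone, as those labelled A/J, high-fat or low-fat, and week 1 or week 3. They came to 39 of the 433 arrays counted in the series. There were 9 high-fat arrays and 10 low-fat arrays at week 1, and 10 high-fat and 10 low-fat arrays at week 3. One high-fat array of week 1 had been deposited again as a second sample with identical values, so that pair (replicates 13 and 14) was counted once. For comparison, 40 arrays of C57 mice on both diets at weeks 1 and 3, 19 A/J arrays of both diets at week 0 and 138 A/J arrays of both diets at weeks 4 to 7 and 9 to 11 were used. A/J is an inbred mouse strain, widely used as a strain that resists weight gain on fat-rich food, and C57, the other strain of the series, is widely used as one that gains weight. No genotype other than strain, and no sex, age or diet composition, is given in the sources used here, nor whether arrays with neighbouring numbers share a mouse. All p-values therefore measure the spread between arrays, part of which may be technical.

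On each array the liver RNA, in the Cy5 dye, competed with a pooled RNA of 10 tissues from C57 mice in the Cy3 dye. Liver and kidney made up 26% of the pool each, brown fat 13%, skeletal muscle 12% and white fat 5%. A value is the log2 of liver over pool, centred on the median of its array, so that 0 is the array's middle probe, and a difference of 1 is a doubling. Differences are high-fat minus low-fat with their standard errors (SE). In bulk tissue, fewer cells of a type and less RNA per cell cannot be told apart.

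A liver that takes in much dietary fat stores it as triglyceride in lipid droplets, burns it in mitochondria and peroxisomes, or exports it in lipoproteins. Synthesis of new fat in hepatocytes is driven mainly by carbohydrate and insulin through the factors SREBP and ChREBP, and its desaturase step, carried out by Scd1, turns saturated into monounsaturated fatty acids. Fatty acid oxidation is driven in part by the fatty acid receptor PPAR alpha, which also raises genes such as Cyp4a14, Ehhadh and Acot1 in mouse liver.

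The tissue carried the marks of hepatocytes. Of 17 measured hepatocyte genes, 15 had a mean above 0 in high-fat livers and 15 in low-fat livers. The array medians of these genes ran between 0.32 and 1.43 in high-fat livers and between 0.53 and 1.68 in low-fat livers at week 1. At week 3 they ran between 0.10 and 0.77 in high-fat livers and between 0.13 and 0.85 in low-fat livers. The diet groups overlapped broadly in both weeks. Low-fat arrays measured fewer probes than high-fat arrays in the median. Medians were 11297 probes in high-fat arrays and 9703.5 in low-fat arrays at week 1, and 12126 in high-fat arrays and 10717 in low-fat arrays at week 3. Of the 20 low-fat arrays, 3 had under 8000 measured probes, all from week 3. The spread of probes within an array also set the weeks apart. The interquartile range of log2 ratios had a median of 1.01 in high-fat and 1.06 in low-fat arrays at week 1, and of 0.48 in high-fat and 0.42 in low-fat arrays at week 3. The part of these array measures in the results below was not tested, except where a setting is named.

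**Figure D1:**
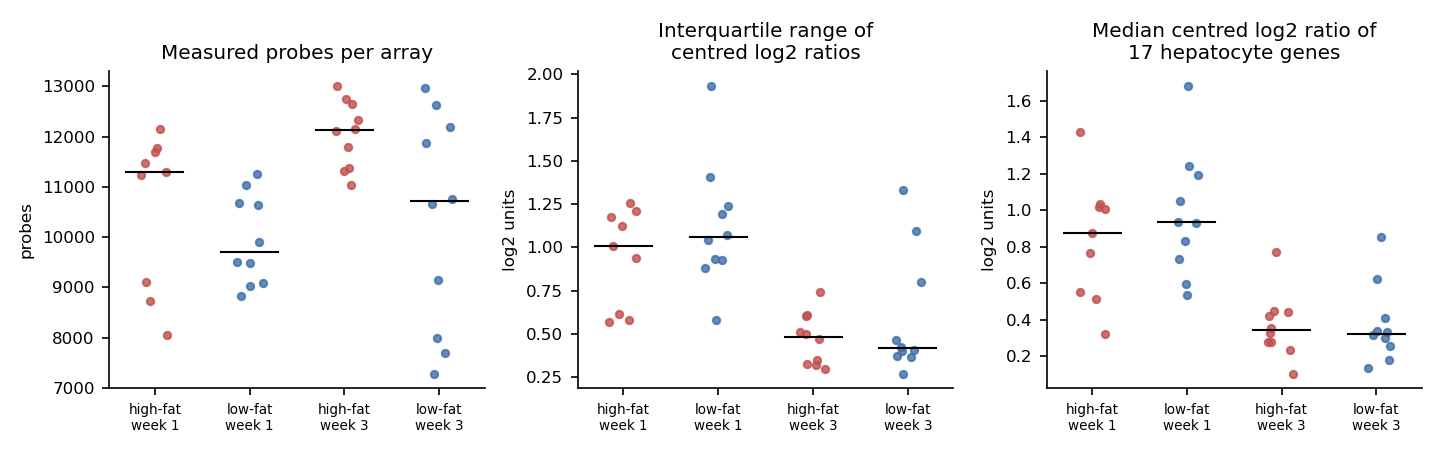
Measured probes, interquartile range of centred log2 ratios and median centred log2 ratio of 17 hepatocyte genes, one point per array, high-fat (red) left of low-fat (blue) at weeks 1 and 3; bars are group medians. The low-fat arrays have the lower median of measured probes in both weeks, and the arrays of week 1 have the wider spread.

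Over both weeks together no gene passed the test. With limma and week as a block, 0 of 8534 probes (0%), standing for 8084 genes, had an adjusted p under 0.05. At an unadjusted p under 0.05 there were 580 probes (6.8%), of which 441 had a positive difference (5.17%) and 139 a negative one (1.63%). The median difference over all probes was 0.03, and 57.5% of probes were positive. The 95% interval of a probe reached 0.305 to either side of the difference in the median. In simulated data with the spread of these arrays, 100 probes were given a log2 difference of 1 and 100 a difference of 0.5. Values were drawn independently for each probe. The same test found 94% of the probes given 1 and 55% of those given 0.5. The adjusted threshold depends on how many probes change, so these shares need not hold for the arrays themselves. The surplus of positive differences depends on the scaling, with 778 positive and 58 negative without centring, 258 positive and 205 negative when the number of measured probes entered the fit, and 276 positive and 198 negative with array weights. Hence the counts below are read against 5.11% of the 8084 genes positive and 1.62% negative at the same unadjusted p, when each gene is represented by one probe.

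The gene with the smallest p over both weeks was Scd1. At week 1 its log2 ratio had a lowest, median and highest value of -1.32, 0.19 and 0.87 over 6 high-fat arrays, and of -1.57, -0.69 and 0.21 over 8 low-fat arrays. At week 3 the same values were -0.15, 0.24 and 0.51 over 10 high-fat arrays, and -0.87, -0.41 and -0.16 over 9 low-fat arrays. The diets overlapped at week 1, where 3 of the 6 high-fat arrays lay above every low-fat array, and at week 3 the ranges met without overlapping. The mean difference was 0.71 ± 0.16 (SE, 95% interval 0.39 to 1.02), or 1.64-fold, with 0.76 at week 1 and 0.68 at week 3. Its unadjusted p was 5.92e-05, and over all probes the adjusted p was 0.395 by limma, so it did not pass. Scd1 passed with quantile normalization (0.81, adjusted p = 0.0365), with array weights (0.65, adjusted p = 0.0089) and without high-fat replicate 15 of week 1 (0.82, adjusted p = 0.0083), and in the other alternatives its adjusted p ran up to 0.837. Groups without overlap were rare. At week 3 they were 2 of 8534 probes (0.0234%), Scd1 and the uncharacterised transcript 4921504E06Rik, which is named here after its values were seen and was measured on 4 low-fat arrays.

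The fat synthesis pathway gave differences of both signs. Of 16 measured genes of fatty acid and triglyceride synthesis 6 were positive, with a median difference of -0.04, and at an unadjusted p under 0.05 there was 1 positive (Scd1) and 1 negative (Fads1). The weeks differed. At week 1, 5 of the 16 were positive (median -0.10). At an unadjusted p under 0.05, 5 were then negative, against 463 of all 8084 genes, and 1 was positive. At week 3, 11 were positive (median 0.04), with 1 positive and 1 negative at that p. The sign was the same in both weeks for 6 (37.5%, against 51.3% of all genes). Fads1, a desaturase of polyunsaturated fatty acids, had values of -2.62, -1.005 and 0.52 (lowest, median, highest) over 7 high-fat arrays and -1.20, 0.16 and 1.94 over 7 low-fat arrays at week 1. Week 3 values were -2.34, -0.42 and 0.15 over 9 high-fat arrays and 0.11, 0.34 and 1.33 over 7 low-fat arrays. The groups overlapped at week 1 and only at their edges at week 3. The difference of Fads1 was -0.95 ± 0.30, with -0.95 at week 1 and -0.96 at week 3, and the adjusted p did not pass. Fasn, the fatty acid synthase itself, differed by -0.17 ± 0.09, with -0.37 at week 1 and 0.02 at week 3. Acly, which supplies acetyl-CoA for synthesis, differed by 0.08 ± 0.12, and the carboxylase Acaca by 0.19. Fads2, which acts in the same pathway as Fads1, differed by -0.04, and the elongases Elovl2 and Elovl5 by -0.45 and -0.26. The regulator Mlxipl, also called ChREBP, differed by 0.05. The probes of Elovl6 and Srebf1 were measured on 10 and 0 of the 39 arrays and were not tested.

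**Figure D2:**
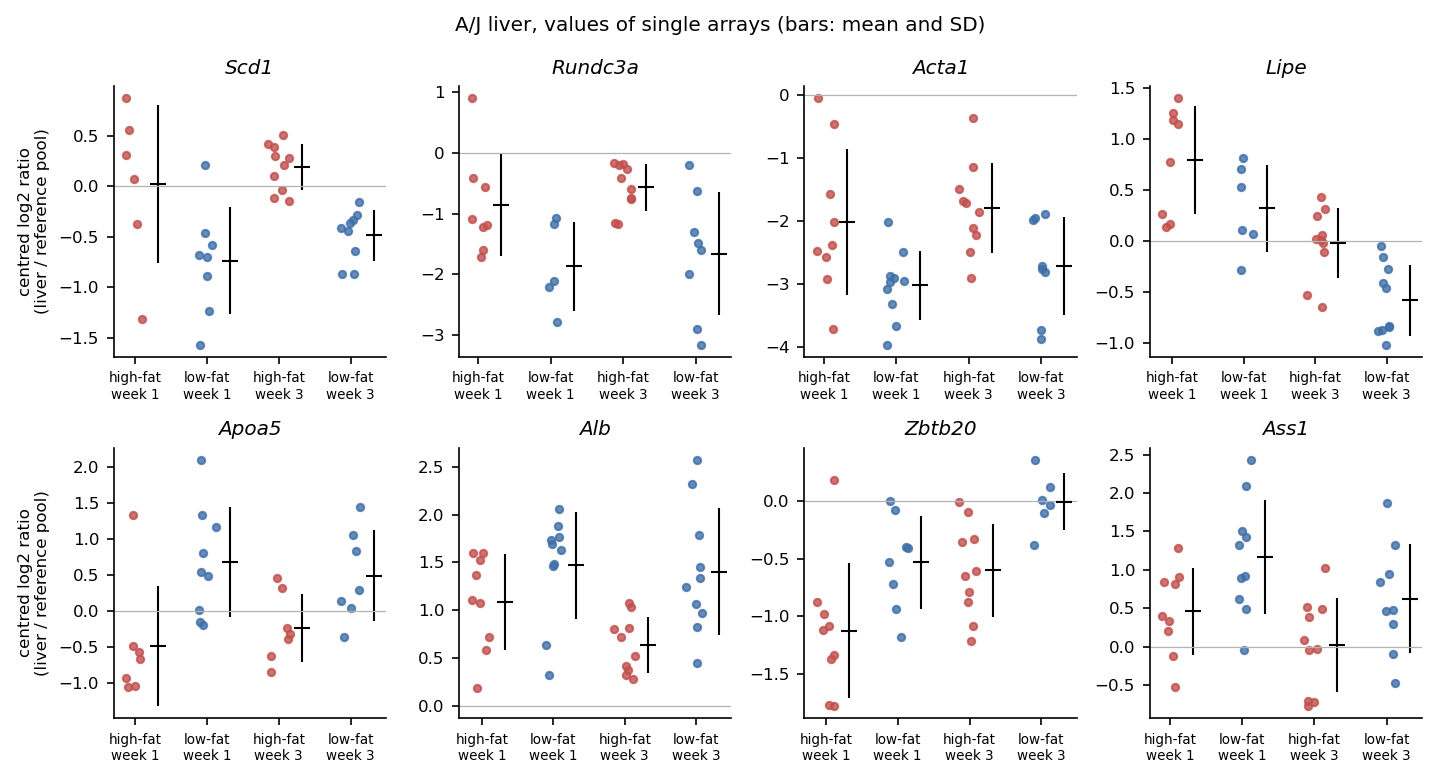
Centred log2 ratio of liver over reference pool for 8 of the 16 genes with the smallest p (8 per direction, same sign in both weeks), one point per array, high-fat (red) left of low-fat (blue) at weeks 1 and 3, with mean and SD beside the points. Scd1 separates the diets at week 3 and Apoa5 shows 1 high-fat array of week 1 at 1.33, away from the other 6.

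Of 14 measured genes of fat uptake, lipid droplets and lipolysis 10 were positive (71.4%, against 57.5% of all genes), and 7 had the same sign in both weeks (50%, against 51.3% of all genes). The list had a median difference of 0.17 against 0.03 for all genes, and 4 (28.6%, against 5.11% of all genes) were positive and none negative at an unadjusted p under 0.05, though none passed the adjusted test. The 4 were Lipe, Slc27a2, Cidea and Abhd5, of which Lipe and Cidea also stand in the fat tissue list described further on. Lipe, the hormone-sensitive lipase of fat cells, had values of 0.14, 0.97 and 1.40 (lowest, median, highest) over 8 high-fat arrays and -0.29, 0.32 and 0.81 over 6 low-fat arrays at week 1. Week 3 values were -0.64, 0.01 and 0.44 over 10 high-fat arrays and -1.01, -0.65 and -0.05 over 10 low-fat arrays. All 10 high-fat arrays of week 3 lay above the low-fat median, and 7 lay above every low-fat array. The difference was 0.52 ± 0.14 (adjusted p = 0.395 by limma). Slc27a2, which takes up and activates long-chain fatty acids, differed by 0.48 ± 0.17, and Cidea, a lipid droplet protein, by 0.45 ± 0.21. Abhd5, the activator of the droplet lipase, differed by 0.35 ± 0.14. The fatty acid transporter Cd36 differed by 0.42 ± 0.22, with 0.57 at week 1 and 0.28 at week 3, and the droplet protein Cidec by 0.21 ± 0.12, with 0.46 at week 1 and -0.03 at week 3. The lipase Pnpla2 differed by -0.01 ± 0.12, the droplet protein Plin5 by -0.10 ± 0.11 and the receptor Pparg by 0.07 ± 0.27. Plin2, the main droplet coat protein of liver, was measured on 17 arrays and was not tested.

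Fatty acid oxidation showed no common direction. Of 26 measured genes 17 were positive, with a median of 0.04, and 1 was positive and 1 negative at an unadjusted p under 0.05. The positive one was Acadvl, the first enzyme of long-chain mitochondrial oxidation, at 0.54 ± 0.18, with 1.05 at week 1 and 0.17 at week 3. The negative one was Crat, which exchanges acyl groups between carnitine and coenzyme A, at -0.75 ± 0.32, with -1.49 at week 1 and -0.17 at week 3. Known targets of PPAR alpha gave small differences with wide errors. Cpt1a, which controls the entry of fatty acids into mitochondria, differed by 0.18 ± 0.17, Cyp4a14 by 0.10 ± 0.21 and the peroxisomal enzyme Ehhadh by 0.04 ± 0.19. Acot1, a thioesterase, differed by -0.36 ± 0.31. For Ehhadh the weeks had opposite signs, 0.50 at week 1 and -0.37 at week 3. The probe of Pdk4 was measured on 4 arrays and was not tested.

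Among genes of lipoproteins, the lowest difference was that of Apoa5, an apolipoprotein made in liver that lowers plasma triglyceride. At week 1 its log2 ratio was -1.06, -0.66 and 1.33 (lowest, median, highest) over 7 high-fat arrays and -0.19, 0.55 and 2.10 over 9 low-fat arrays. At week 3 it was -0.85, -0.31 and 0.47 over 7 high-fat arrays and -0.35, 0.30 and 1.45 over 7 low-fat arrays. At week 1, 6 of the 7 high-fat arrays lay below every low-fat array. The remaining one, replicate 11, lay far above those 6 and within the low-fat range. The difference was -0.96 ± 0.24, or 0.515-fold (adjusted p = 0.395 by limma), and dropping any 1 array gave values from -1.10 (without that replicate 11) to -0.86. Over 13 measured apolipoprotein and lipoprotein genes 7 were positive, with a median of 0.04. Apoa4, which is secreted with fat-rich lipoproteins, differed by 0.26 ± 0.11, and Apoa1, Apoc3 and Apoe by 0.09, 0.04 and 0.07. Of 15 genes of bile acid and sterol handling 10 were positive (median 0.02) and none had an unadjusted p under 0.05. The bile acid importer Slc10a1 differed by -0.52 ± 0.29. Cholesterol synthesis and uptake could hardly be read, since only 3 of its 21 genes on the array were measured often enough to be tested. They were the enzymes Fdft1 and Ebp and the regulator Insig2, at 0.13, 0.13 and 0.14. Cyp7a1, the rate-limiting enzyme of bile acid synthesis, was measured on 5 arrays.

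In sugar metabolism no gene had an unadjusted p under 0.05. Of 18 genes of glycolysis, gluconeogenesis and glycogen 7 were positive, with a median of -0.02. In amino acid and urea metabolism 8 of 15 were positive (median 0.05), and Ass1, the argininosuccinate synthase of the urea cycle, was the 1 gene with an unadjusted p under 0.05. Its values at week 1 were -0.53, 0.40 and 1.28 (lowest, median, highest) over 9 high-fat arrays and -0.04, 1.12 and 2.43 over 10 low-fat arrays. Week 3 values were -0.77, 0.03 and 1.02 over 10 high-fat arrays and -0.48, 0.48 and 1.86 over 9 low-fat arrays. The diets overlapped in both weeks, and the difference was -0.66 ± 0.21, without passing the adjusted test. Asl, the next enzyme of the cycle, differed by 0.00. Of 31 cytochrome P450 and conjugation genes 20 were positive (median 0.08), and the glutathione transferase Gstm3 was negative at -0.34 ± 0.16. Of 6 major urinary protein and male-biased genes 2 were positive (median -0.08), with Mup5 at -0.24.

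Stress, immune and housekeeping lists gave medians between -0.12 and 0.10. In the acute phase and complement list 12 of 20 genes were positive (median 0.09), with Itih3 at 0.44 ± 0.17 and Saa4 at 0.31 ± 0.12. In the interferon and antigen presentation list 14 of 21 were positive (median 0.08), led by the interferon-induced GTPase Igtp at 0.85 ± 0.31. Of 2 named genes of class II antigen presentation, the invariant chain Cd74 differed by 0.35 ± 0.12 and H2-Eb1 by -0.28 ± 0.15. Chaperones were positive for 15 of 28 genes (median 0.01), with the chaperonin subunit Cct3 at 0.58 ± 0.17 and the endoplasmic reticulum chaperone Hspa5 at 0.58 ± 0.23. Oxidative stress genes were positive for 8 of 16 (median 0.00), with the superoxide dismutase Sod1 at -0.26 ± 0.12. Ribosomal proteins were positive for 18 of 35 (median 0.00), and none had an unadjusted p under 0.05. Respiratory chain genes were positive for 36 of 48 (median 0.06, 75% positive against 57.5% of all genes), with 1 gene, Uqcrh at 0.62 ± 0.24, at an unadjusted p under 0.05. Proteasome subunits were positive for 14 of 22 (median 0.05), with Psmd4 at 0.68 ± 0.29 and Psma7 at -0.22 ± 0.08. Clock genes were positive for 5 of 11 (median -0.12), with the repressor Nfil3 at -0.43 ± 0.20, the nuclear receptor Nr1d2 at 0.37 ± 0.19 and Tef at 0.28 ± 0.14. Cell division genes were positive for 10 of 15 (median 0.10), with the thymidylate synthase Tyms at 0.87 ± 0.24, the replication clamp Pcna at -0.31 ± 0.18 and the cyclin Ccnd1 at -0.17 ± 0.10. None of these genes passed the adjusted test.

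**Figure D3:**
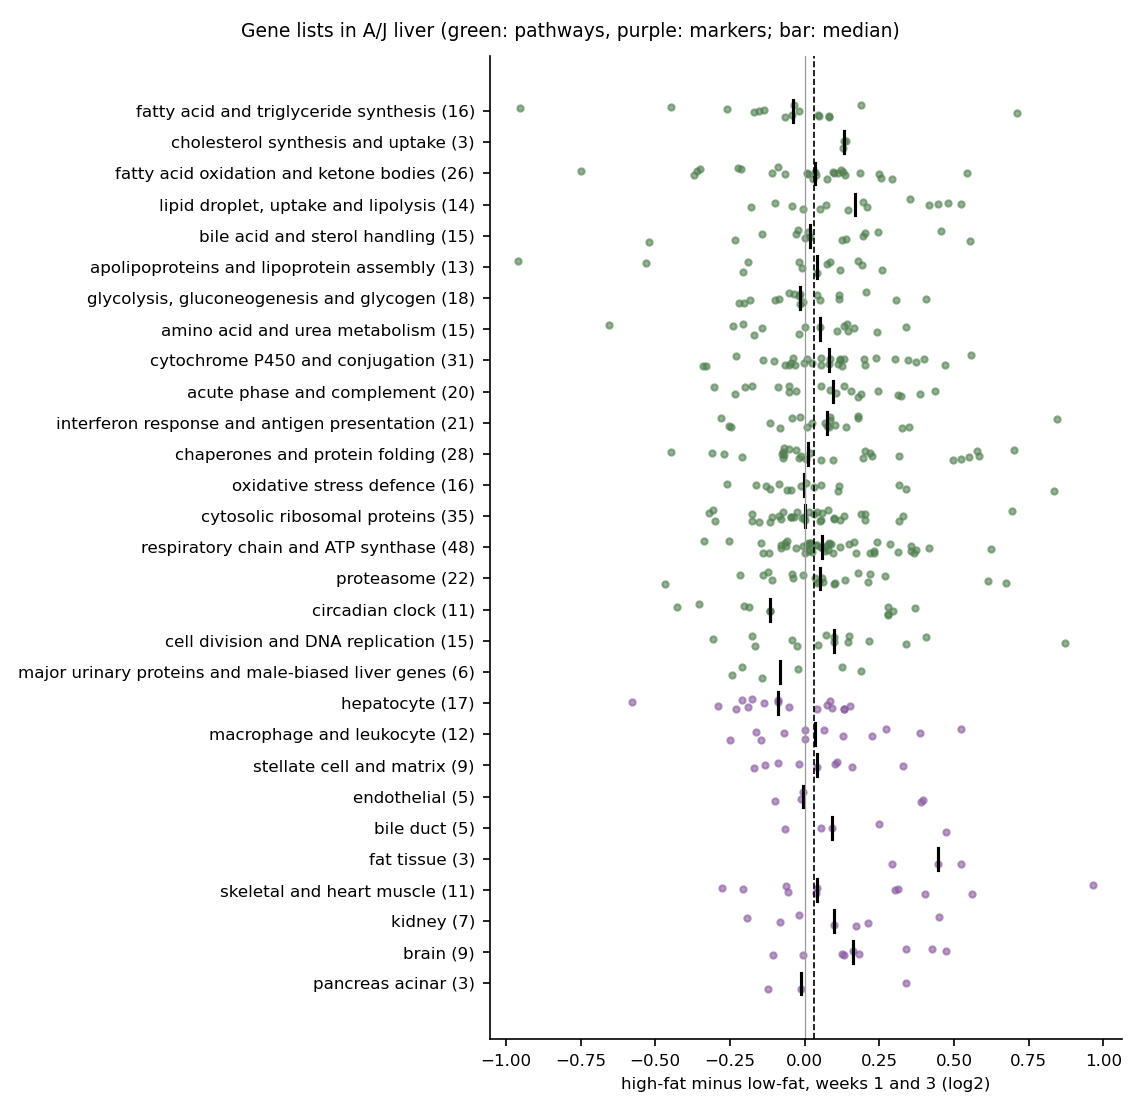
Log2 difference, high-fat minus low-fat over weeks 1 and 3, of every tested member of the gene lists with at least 3 tested members (number in brackets); pathway lists in green, marker lists in purple, bars are list medians and the dashed line is the median of all genes, 0.03. The 3 fat tissue genes have the highest median, 0.45.

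Albumin (Alb), the main plasma protein made by liver, was lower on most high-fat arrays. At week 1 its log2 ratio was 0.19, 1.11 and 1.60 (lowest, median, highest) over 9 high-fat arrays and 0.32, 1.66 and 2.06 over 10 low-fat arrays. At week 3 it was 0.28, 0.62 and 1.07 over 10 high-fat arrays and 0.44, 1.29 and 2.57 over 10 low-fat arrays. All 9 and all 10 high-fat arrays lay below the low-fat median of their week, with overlap of the ranges. The difference was -0.58 ± 0.16, or 0.669-fold (adjusted p = 0.452 by limma). Alb had the lowest difference of its list. Of 17 measured genes 7 were positive, with a median of -0.09, and Alb was the 1 gene with an unadjusted p under 0.05. Hnf4a, a regulator of hepatocyte genes, differed by -0.29 ± 0.15, the thyroxine carrier Ttr by -0.21, and the plasma protein Ahsg by 0.09.

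Fat tissue and muscle are both parts of the reference pool. All 3 measured fat tissue genes were positive, with a median of 0.45: Lipe, Cidea and the hormone gene Retn (0.29 ± 0.22). Of the 3, 2 had a mean above 0 in high-fat livers and 0 in low-fat livers. Their array median ran between 0.01 and 0.82 in high-fat livers and between -0.37 and 0.59 in low-fat livers at week 1, and between -0.64 and 0.32 in high-fat livers and between -2.80 and -0.05 in low-fat livers at week 3. Of the defining fat cell genes, Adipoq had a value on 2 of 19 high-fat arrays and 1 of 20 low-fat arrays, Fabp4 on 5 high-fat and 3 low-fat arrays, and the brown fat gene Ucp1 on 14 high-fat and 7 low-fat arrays. Low-fat arrays measured fewer probes in the median, and markers of other tissues had such gaps too. The red blood cell gene Slc4a1 had a value on 12 high-fat and 7 low-fat arrays. A gap the other way was seen for the endothelial gene Clec4g, on 12 high-fat and 18 low-fat arrays. The part of the number of measured probes in these counts was not tested. Among 11 muscle genes 7 were positive (median 0.04), a share near that of all genes, and 3 (27.3%) were positive and none negative at an unadjusted p under 0.05: Acta1, Ckm and Tnni2. Of the 11, 1 had a mean above 0 in high-fat livers and 1 in low-fat livers. Their array median ran between -1.82 and -0.50 in high-fat and between -1.99 and 0.00 in low-fat livers at week 1, and between -0.79 and -0.03 in high-fat and between -1.41 and -0.07 in low-fat livers at week 3. Acta1, the actin of skeletal muscle, had values of -3.72, -2.38 and -0.05 (lowest, median, highest) over 9 high-fat arrays and -3.97, -2.96 and -2.02 over 10 low-fat arrays at week 1. Week 3 values were -2.90, -1.78 and -0.35 over 10 high-fat arrays and -3.88, -2.74 and -1.88 over 8 low-fat arrays. In every group Acta1 lay below 0, and in each week part of the high-fat arrays lay above every low-fat array, 4 of 9 and 6 of 10. Its difference was 0.97 ± 0.26, that of the muscle creatine kinase Ckm 0.56 ± 0.26 and that of the troponin Tnni2 0.40 ± 0.18, while Myl2 and Tnnc1 stood at -0.28 and -0.21. The part of fat tissue or muscle RNA in the differences of Lipe, Cidea and Acta1 was not tested.

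Of the other marker lists, macrophage and leukocyte genes were positive for 7 of 12 (median 0.03), with the integrin Itgb2 at 0.39 ± 0.18 and the macrophage receptor Marco at 0.00. Their array median ran between -1.20 and -0.19 in high-fat and between -1.38 and -0.22 in low-fat livers at week 1, and between -0.54 and -0.11 in high-fat and between -2.24 and 0.13 in low-fat livers at week 3. Stellate cell and matrix genes were positive for 5 of 9 (median 0.04), endothelial genes for 2 of 5 (median -0.01), bile duct genes for 4 of 5 (median 0.09) and kidney genes for 4 of 7 (median 0.10). Brain genes were positive for 7 of 9 (median 0.16), with the myelin gene Mbp at 0.47 ± 0.20. Of 3 pancreas genes 1 was positive (median -0.01), and the 1 red blood cell gene measured, Car2, differed by 0.17.

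The remaining genes with the smallest p fell in no fixed list. On the high-fat side, Trp53bp1, a protein of DNA break repair, differed by 0.62 ± 0.14, with 0.74 at week 1 and 0.50 at week 3. Its values at week 1 were -0.87, -0.39 and 0.05 (lowest, median, highest) over 9 high-fat arrays and -2.17, -1.03 and -0.65 over 9 low-fat arrays, so that the ranges overlapped little. Week 3 values were -0.48, -0.05 and 0.21 over 10 high-fat arrays and -1.29, -0.53 and 0.46 over 8 low-fat arrays, where 1 or more low-fat arrays lay above every high-fat array. Rundc3a differed by 1.06 ± 0.26, or 2.08-fold. It had -1.72, -1.14 and 0.90 (lowest, median, highest) over 8 high-fat arrays at week 1, against -1.16, -2.11, -2.78, -2.21 and -1.07 on the 5 low-fat arrays that measured it. At week 3 it had -1.16, -0.50 and -0.16 over 10 high-fat arrays and -3.16, -1.54 and -0.20 over 8 low-fat arrays. Both weeks showed overlap, with the low-fat medians lower. Kcnd2, a potassium channel subunit, differed by 0.42 ± 0.11, Ebi3, a subunit of the cytokine interleukin-27, by 0.43 ± 0.11, and Sycn, a protein of pancreatic secretory granules, by 0.63 ± 0.17.

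On the low-fat side, Zbtb20, a zinc finger repressor of the fetal gene alpha-fetoprotein in liver, differed by -0.59 ± 0.15. Its values were -1.78, -1.12 and 0.18 (lowest, median, highest) over 9 high-fat arrays and -1.18, -0.47 and 0.00 over 8 low-fat arrays at week 1. Week 3 values were -1.21, -0.63 and -0.01 over 10 high-fat arrays and -0.38, -0.01 and 0.36 over 6 low-fat arrays. The ranges overlapped in both weeks, and the week differences were -0.59 and -0.60. Catsperg2, a subunit of the sperm calcium channel, differed by -0.89 ± 0.22, Rbm31y by -0.54 ± 0.14, and Tob1, an inhibitor of cell proliferation, by -0.47 ± 0.15. Taf1d, a factor of RNA polymerase I transcription, differed by -0.81 ± 0.25 on its most often measured probe and by -0.08 ± 0.16 on its other probe. None of these passed, with adjusted p of at least 0.395 by limma. Kif21a, a kinesin motor, differed by 0.34 ± 0.16, with 0.51 at week 1 and 0.22 at week 3, and ranged from -0.26 to 0.28 in high-fat and from -0.82 to 0.52 in low-fat livers at week 3.

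At week 1 there were 5 probes past the threshold (0.0586% of 8534). At an unadjusted p under 0.05 there were 1144 (13.4%), positive for 7.69% of probes and negative for 5.72%. Each of the 5 had an adjusted p of 0.0353 by limma in a fit that shares 1 spread over both weeks. Zbtb18, Lrrc40 and Hapln2 were higher on the high-fat diet. The zinc finger repressor Zbtb18 ranged from -0.07 to 0.26 over 7 high-fat arrays and from -2.0 to -0.09 over 10 low-fat arrays, a difference of 1.05 ± 0.20 with no overlap. Lrrc40 ranged from -0.89 to 0.01 over 9 high-fat arrays and from -2.58 to -0.70 over 8 low-fat arrays, a difference of 1.12 ± 0.22. Hapln2, a link protein of brain matrix, ranged from -0.07 to 1.59 over 6 high-fat arrays, against -2.0, -0.43, -1.32 and -0.66 on 4 low-fat arrays, a difference of 1.47 ± 0.29. The other two were lower on the high-fat diet. Catsperg2 ranged from -1.25 to 0.33 over 6 high-fat arrays, against 0.24, 1.18, 1.66 and 1.91 on 4 low-fat arrays, a difference of -1.68 ± 0.33. Sprr2f, a protein of the cornified envelope of skin, ranged from -1.19 to 0.23 over 7 high-fat arrays and from 0.01 to 0.81 over 6 low-fat arrays, a difference of -1.03 ± 0.21.

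With week 1 fitted alone none of these calls was made. The count was then 0 of 8534 by limma (729 at an unadjusted p under 0.05), and the 5 genes had the same differences with an adjusted p of 0.475 each. Leaving out single arrays took the count of 5 to between 0, for 11 of the 39 arrays, and 28, without low-fat replicate 10 of week 1. In simulated data the shared fit called 46 of 8334 unchanged probes at week 1, against 4 when week 1 was fitted alone. The simulated data also held 100 probes given 0.5 and 100 given 1. Of these the shared fit found 22% and 73%, and the fit of week 1 alone 5% and 46%. With so many changed probes the adjusted threshold is looser, so these counts cannot be carried over to the 5 calls here. At week 3 the same genes stood at -0.04 (Zbtb18), 0.06 (Lrrc40), -0.01 (Hapln2), 0.02 (Sprr2f) and -0.46 (Catsperg2). Diet groups without overlap were found at week 1 for 5 of 8534 probes (0.0586%): Zbtb18, Hapln2, Lig1, Syt5 and Naa15. The last 3 were named after their values were seen, and did not pass, at -0.91, 1.21 and -1.03.

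At week 3 the fit with the shared spread gave 0 probes past the threshold (0%) by limma. There were 187 (2.19%) at an unadjusted p under 0.05, positive for 1.48% of probes and negative for 0.715%. With week 3 fitted alone the count was also 0 of 8534 by limma, with 335 at an unadjusted p under 0.05. Scd1 then had the same difference, 0.68, with an adjusted p of 0.0881 by limma. In the shared fit 35 probes had an unadjusted p under 0.05 in both weeks. They made up 18.7% of the probes of week 3, where 13.4% of all probes reached that p at week 1, and 3.06% of the probes of week 1, where 2.19% of all probes did at week 3. Both p-values of a probe rest on the same estimate of its spread. The 2 weeks are thus not independent here, and some excess over these shares can arise without a common difference. Of the 35, 26 had the same sign in both weeks, against 51.1% of all probes. The test of week 3 minus week 1 passed for 0 of 8534 probes (0%) by limma, with 633 (7.42%) at an unadjusted p under 0.05, positive for 3.77% and negative for 3.64%.

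**Figure D4:**
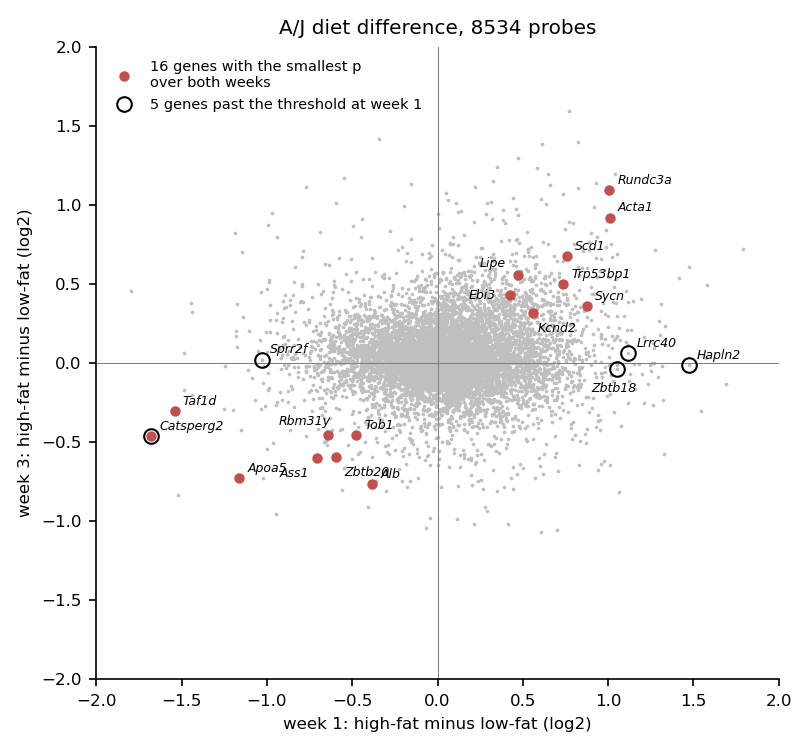
Log2 difference, high-fat minus low-fat, at week 1 (x axis) and week 3 (y axis) for 8534 probes (grey), the 16 genes with the smallest p over both weeks, 8 per direction with the same sign in both weeks (red) and the 5 genes past the threshold at week 1 (circles). The cloud is wider along the week 1 axis, and the genes Zbtb18, Lrrc40, Hapln2 and Sprr2f lie near 0 at week 3.

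Against C57 at the same weeks, no gene's diet difference was shown to be particular to A/J. The difference A/J minus C57 passed for 0 of 9194 probes (0%) by limma, with 976 (10.6%) at an unadjusted p under 0.05, positive for 6.26% and negative for 4.35%. For Scd1, C57 differed by 0.68 ± 0.17, and A/J minus C57 was 0.05 ± 0.26 (95% interval -0.47 to 0.56). In C57 Scd1 had medians of 0.67 over 10 high-fat arrays and -0.15 over 10 low-fat arrays at week 1, and of 0.91 over 10 high-fat and -0.10 over 8 low-fat arrays at week 3. Kif21a differed by 0.71 ± 0.17 in C57, and A/J minus C57 was -0.34 ± 0.25. Apoa5 differed by 0.32 ± 0.22 in C57, with A/J minus C57 at -1.26 ± 0.33 (adjusted p = 0.246 by limma). Alb differed by -0.03 ± 0.13 in C57, with A/J minus C57 at -0.54 ± 0.19, and Zbtb20 by 0.25 ± 0.16, with A/J minus C57 at -0.84 ± 0.24. Acta1 stood at -0.0014 ± 0.25 in C57, with A/J minus C57 at 0.97 ± 0.36. None of these passed. Apoa5, Alb, Zbtb20 and Acta1 were named for their small p in A/J at weeks 1 and 3. That choice alone tends to give smaller differences in any other group, so these values do not show a difference particular to A/J.

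Week 0 carries a diet label too, and there the diet difference of Scd1 passed the test, in a fit of weeks 0, 1 and 3 over 5246 probes. The test over weeks 1 and 3 that Scd1 did not pass was another fit, over 8534 probes. Passing in 1 fit and not in the other therefore does not show that the weeks differ. The week 0 call was not recomputed under other settings. How many of the 5246 probes passed at week 0 was not counted, so whether such a call is rare there is not known. Centred over the probes of that fit, Scd1 had values of -0.49, 0.19 and 0.76 (lowest, median, highest) over 8 high-fat arrays of week 0 and -1.77, -0.91 and -0.32 over 6 low-fat arrays. The ranges overlapped, and the week 0 difference was 1.14 ± 0.24 (adjusted p = 0.0337 by limma). Weeks 1 and 3 minus week 0 gave -0.44 ± 0.29 for Scd1 (95% interval -1.02 to 0.15). Over 5246 probes 1 passed this test (0.0191%), with 507 (9.66%) at an unadjusted p under 0.05, positive for 5.6% and negative for 4.06%. It was Sidt2, a lysosomal membrane protein. At week 0 its values were -1.14, -0.93 and -0.74 (lowest, median, highest) on 4 high-fat arrays and -0.48, -0.16 and 0.23 over 7 low-fat arrays, without overlap. Its difference was 0.12 ± 0.09 at weeks 1 and 3 and -0.81 ± 0.17 at week 0, and the change between them was 0.93 ± 0.19 (adjusted p = 0.0428 by limma). Sidt2 did not pass without centring (adjusted p = 0.111), centred on all measured probes (adjusted p = 0.0708), without the A/J arrays under 8000 probes (adjusted p = 0.0963) or with quantile normalization (adjusted p = 0.779).

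Later in feeding, over weeks 4 to 7 and 9 to 11, Scd1 differed by 1.17 ± 0.11 in A/J. Weeks 1 and 3 minus the later weeks gave -0.46 ± 0.23 (95% interval -0.92 to 0.01). Over these 7 weeks the median of Scd1 lay between 0.24 (week 4) and 1.63 (week 6) in high-fat livers and between -0.69 (week 6) and 0.34 (week 9) in low-fat livers. Kif21a differed by 0.68 ± 0.09 later, with weeks 1 and 3 minus later at -0.31 ± 0.19. Over 7190 probes 1 passed the test of early minus later weeks (0.0139%), with 667 (9.28%) at an unadjusted p under 0.05, positive for 7.3% and negative for 1.97%. It was Rundc3a, at 1.06 ± 0.28 in weeks 1 and 3 and -0.51 ± 0.14 later, a change of 1.56 ± 0.32 (adjusted p = 0.0164 by limma). It did not pass with neighbouring arrays averaged (1.53, adjusted p = 0.0691). These fits too share 1 spread over weeks whose arrays differ in spread. In the later weeks the high-fat mean was lower at weeks 4, 5, 6, 7 and 10, about equal at week 9 and higher at week 11. At week 4 Rundc3a averaged -1.93 ± 1.00 (SD) in high-fat and -0.42 ± 1.02 in low-fat livers, and at week 5 -1.79 ± 0.80 in high-fat and -0.90 ± 0.84 in low-fat livers. At week 6 the means were -1.52 ± 0.58 in high-fat and -0.92 ± 0.78 in low-fat livers. They were -1.815 ± 1.28 in high-fat and -1.20 ± 0.51 in low-fat livers at week 7. Week 10 gave -1.52 ± 0.50 in high-fat and -1.26 ± 0.63 in low-fat livers. At week 9 the means were -0.91 ± 0.47 in high-fat and -0.93 ± 0.25 in low-fat livers. At week 11 they were -1.83 ± 0.68 in high-fat and -2.15 ± 0.95 in low-fat livers, the same direction as in weeks 1 and 3. Among the other genes, Apoa5 stood at 0.18 ± 0.15 later, Lipe at 0.07 ± 0.08, Alb at -0.08 ± 0.09, Fads1 at -0.05 ± 0.12 and Acta1 at -0.38 ± 0.17. Their changes did not pass, except that of Fads1 with quantile normalization. These genes were named for their small p at weeks 1 and 3, a choice that alone tends to give smaller differences in other weeks.

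**Figure D5:**
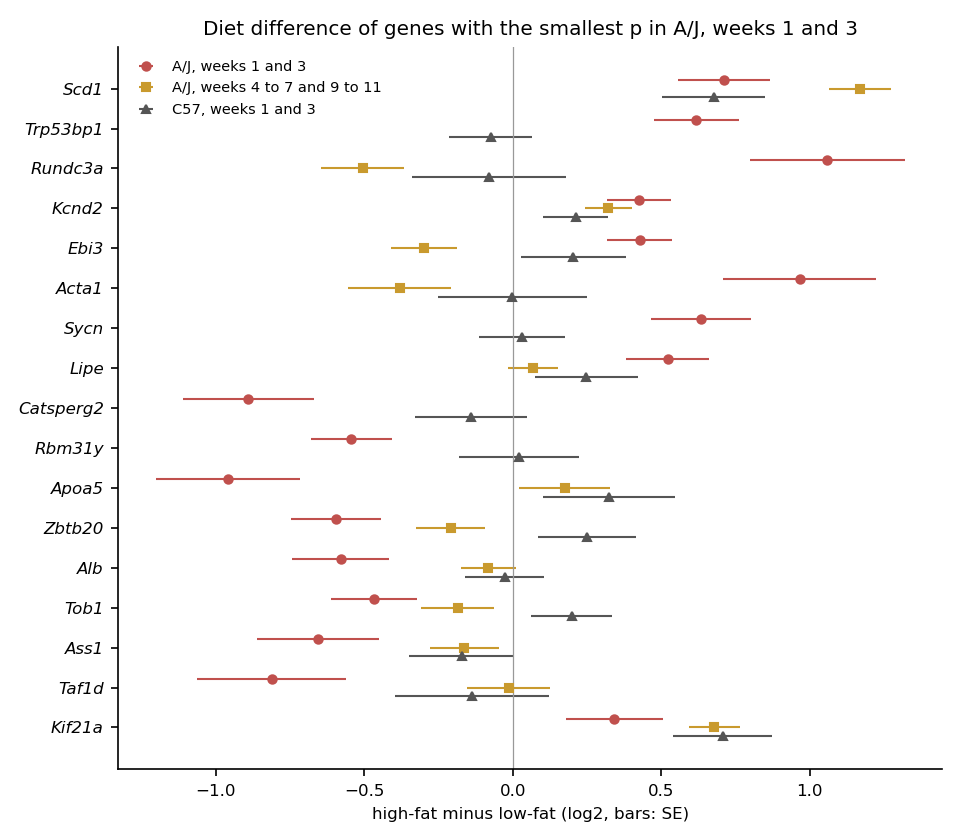
Log2 difference, high-fat minus low-fat, with SE, for the 16 genes with the smallest p in A/J at weeks 1 and 3 and Kif21a, in A/J at weeks 1 and 3 (red circles), A/J at weeks 4 to 7 and 9 to 11 (yellow squares, where tested) and C57 at weeks 1 and 3 (grey triangles). Scd1 is positive in all of them, and Rundc3a has opposite signs in weeks 1 and 3 and over the mean of the later weeks, which differ among themselves. The 16 genes were chosen by their p in the red group, which alone tends to give smaller differences in the other groups.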

How the data were processed

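Spotted 2-colour arrays compared Cy5 liver RNA with a Cy3 pool. The authors deposited linear ratios of liver over pool, whose mean is 1 on every array; scale and direction were read from the values, and image analysis, filters and normalization are not given in the sources used here. Log2 was taken of positive deposited ratios, since 0.203% of measured values were at or below 0 and 37.6% of cells were empty. Signal is unknown, so the number of arrays limits precision. Of 17280 positions 14711 had 1 symbol in the gene table and 6 several, and 14416 matched Entrez identifiers (GRCm38.p6).

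Arrays were centred on the median of tested probes, those measured on 70% of arrays and 3 per group. Limma 3.58.1 in R 4.3.3 gave Benjamini-Hochberg p-values over all probes (threshold 0.05), with week as a block, or with group means for single weeks, C57, week 0 and weeks 4 to 7 and 9 to 11. Week 8 was left out because its arrays were unlike the rest in earlier results. A gene was represented by its most often measured probe. Code was tested on simulated data. The comparison, the 30 gene lists and the naming rule (8 smallest p per direction, 3 per list, all single-week or interaction calls up to 5, and a fixed set of diet genes) were chosen with earlier results of these data known. Alternatives covered scaling, filters, replication, weights and left-out arrays. No pairing of the diets by replicate number was seen: same-numbered arrays of a week correlated between -0.33 and 0.32 over 17 pairs, above 0.1 in 4. Pairs with other numbers were above 0.1 in 48 of 173. Such values cannot show that the design was unpaired. Within a group, consecutive arrays were above 0.1 in 5 of 19 pairs, against 19 of 152 pairs that were not consecutive. Whether consecutive arrays share a mouse cannot be told from these values.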

Additional observations from a re-analysis of the deposited data

Results flagged for a closer look

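An outlying array was sought in 96 sets of values, those of 21 genes and 3 array measures in groups of 4 to 10 arrays, and found in 4. Chance alone would mark about 5% of such sets. Apoa5 was 1.33 on high-fat replicate 11 of week 1, with the next array at -0.48. Zbtb20 was 0.18 on the same array, with the next at -0.88. Kcnd2 was -0.91 on low-fat replicate 28 of week 3, with the next at -0.31, and this array is 1 of the 3 with under 8000 measured probes. Taf1d was -1.28 on high-fat replicate 26 of week 3, with the next at -0.26.

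The diet difference of 2 genes moved between spans of weeks by a test of the change itself. Sidt2 changed by 0.93 between week 0 and weeks 1 and 3, with 4 high-fat arrays at week 0. Rundc3a changed by 1.56 between weeks 4 to 7 and 9 to 11 and weeks 1 and 3, and the later weeks differed among themselves in direction.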

How the results depend on the processing

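The number of probes past the threshold over both weeks was 0 in the fit reported, 1 with quantile normalization, 1 with array weights (Scd1 in both), and 0 to 1 when single arrays were left out. With the replicate block it was 0 of 8534, and no named difference over both weeks changed side of the threshold. The block was fitted for this comparison alone, with replicate number in place of week. Replicate 20 is an array of week 1 in high-fat and of week 3 in low-fat livers, so that block crossed the weeks. Numbers found in 1 diet only did not inform the difference. At week 1 the count of 5 became 10 without centring, 3 centred on all measured probes, 4 with measured probes as a covariate, and 0 with quantile normalization, a 90% filter, averaged neighbours, array weights or week 1 alone. It ran from 0 to 28 when single arrays were left out, at 28 without low-fat replicate 10 of week 1, 11, 9 and 8 without low-fat 17, high-fat 15 and low-fat 15, and at 1, 2 and 3 without high-fat 20, low-fat 14 and low-fat 23. It was 0 without high-fat 12, 13, 16, 17, 19, 24 or 29, or low-fat 11, 18, 19 or 25. Week 3 gave 1 with quantile normalization (Scd1) and 3 with array weights (Mup5, Scd1, Snrpc), and 0 to 0 with single arrays left out. Week 3 minus week 1 gave 1 with array weights (Spsb4) and 0 to 0 with single arrays left out. Against week 0 the count of 1 became 0 without centring, with quantile normalization, centred on all measured probes, with the 90% filter and without the arrays under 8000 probes. Against later weeks it became 4 without centring, 6 with quantile normalization (among them Fads1, Cct3 and Rundc3a), and 0 with the 90% filter or averaged neighbours. The cause of these changes was not tested.

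Signs turned under some settings. Cel (-0.01) became 0.039 without centring, 0.017 centred on all measured probes, 0.066 averaged and 0.13 without the arrays under 8000 probes, and ran from -0.28 to 0.083 with an array left out. With quantile normalization Ehhadh was -0.0021, Fdft1 -0.072, Rpl37a -0.0046 and Col1a2 -0.050. With the covariate Pgk1 was -0.051, Tpi1 -0.026, Col1a2 -0.020, Cav1 0.037, Sox9 0.028, Car2 -0.042 and Cela3b 0.0061. With array weights Ehhadh was -0.060, Fdft1 -0.090, Rpl37a -0.0038, Susd4 0.054, Vim -0.044, Col1a2 -0.053, Tubb3 -0.020 and Cela2a -0.0077. Cav1 was 0.068 without the arrays under 8000 probes. With an array left out Ehhadh ran from -0.030 to 0.19, Cav1 from -0.16 to 0.052 and Car2 from -0.012 to 0.28. Of 1441 alternative values of 116 named differences, 1374 kept direction and side of the threshold, 28 changed sign as given here, 36 fell short of the threshold and 3 (Scd1) newly passed it. Positive and negative differences at an unadjusted p under 0.05 numbered 587 and 83 centred on all measured probes, and 361 and 166 with quantile normalization. Leaving out arrays under 8000 probes and fitting each week alone were chosen after seeing the data.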

Other observations

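Many probes of an array carry exactly the same ratio. Different values made up a median of 53.9% of the measured ratios in high-fat arrays and 52.6% in low-fat arrays at week 1, and 60.4% in high-fat arrays and 59.1% in low-fat arrays at week 3. The most common ratio of an array was shared by up to 289 probes. The lowest values of Zbtb18 and Hapln2 in low-fat arrays of week 1 were both -2.0.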
